A study of Mus musculus with 31 samples.

Results

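The question here was whether the response of dendritic cells to LPS depended on the Gpr34 genotype. It was read from the interaction over 12 of the 31 libraries of the series, that is the LPS effect in cells labelled knockout minus the LPS effect in wild-type cells. The cells were grown from the bone marrow of male C57BL/6 mice aged 8 to 16 weeks, wild-type or Gpr34-/-, for 10 days with supernatant of X63 cells, a line that secretes GM-CSF. They were then moved to medium without serum and left naive or given LPS on day 11 for 8 h, at a dose that the sources used here do not give. The 4 groups were naive wild-type (replicates 1, 2 and 4), naive labelled knockout (replicates 2, 3 and 4), LPS-treated wild-type (replicates 1, 2 and 3) and LPS-treated labelled knockout (replicates 2, 3 and 4), taken from the sample titles. The labels do not name the animal behind a library, so p-values measure only the spread between these libraries, which may be technical. Cultures of this kind hold macrophage-like cells beside dendritic cells. In bulk RNA, fewer cells of a type and less RNA per cell cannot be told apart.

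LPS, a part of the outer membrane of Gram-negative bacteria, is handed by Cd14 to the receptor Tlr4 and its partner Md-2. From the cell surface the adaptor Myd88 leads to NF-kB and to cytokine genes such as Il6 and Il12b. From endosomes the adaptor Trif (Ticam1) leads to the kinase Tbk1, the factor Irf3 and interferon beta, which in turn raises antiviral genes such as the Ifit, Oas and Isg15 genes. Over the same hours dendritic cells mature: costimulatory genes such as Cd40 rise and genes of cell division fall. Gpr34 is a G protein-coupled receptor for lysophosphatidylserine, a phospholipid of damaged or activated cells.

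Promoters are shown for 1 gene of each arm and 1 gene that both arms reach, since the gene groups below are read by arm. Each run is the 250 bases before the RefSeq start on the gene's strand (GRCm38.p6), at chr5:30012864-30013113 (plus strand) for Il6, chr5:92348890-92349139 (minus strand) for Cxcl10 and chr19:34583279-34583528 (plus strand) for Ifit3. Capitals mark matches, on either strand, to the NF-kB consensus or to the core of the interferon-stimulated response element, which is GAAA, any 2 bases and GAAA again.
Il6: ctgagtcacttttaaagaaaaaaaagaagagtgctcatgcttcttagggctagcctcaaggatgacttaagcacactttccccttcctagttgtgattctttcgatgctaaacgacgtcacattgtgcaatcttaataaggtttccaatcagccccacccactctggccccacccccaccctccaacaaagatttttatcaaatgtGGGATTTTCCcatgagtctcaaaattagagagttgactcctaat
Cxcl10: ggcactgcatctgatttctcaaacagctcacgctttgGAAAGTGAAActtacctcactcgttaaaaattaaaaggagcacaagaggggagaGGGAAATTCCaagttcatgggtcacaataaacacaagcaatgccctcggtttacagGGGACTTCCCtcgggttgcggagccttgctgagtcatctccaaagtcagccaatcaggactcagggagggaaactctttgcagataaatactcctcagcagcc
Ifit3: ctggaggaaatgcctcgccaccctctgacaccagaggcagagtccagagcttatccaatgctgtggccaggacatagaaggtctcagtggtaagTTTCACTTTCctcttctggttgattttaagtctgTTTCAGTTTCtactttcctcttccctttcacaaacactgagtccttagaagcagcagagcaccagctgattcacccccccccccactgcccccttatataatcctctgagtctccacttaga
The Il6 promoter held 1 match to the NF-kB consensus and none to the interferon element. The Cxcl10 promoter held 2 and 1, and the Ifit3 promoter 0 and 2. Of 32851 mouse promoters of this length, 3.90% held the NF-kB consensus and 2.98% held the interferon element. The consensus was in 4 of 21 promoters of the inflammatory cytokine list and 6 of 16 of the chemokine list, and the interferon element was in 8 of 29 promoters of interferon-stimulated antiviral genes and 9 of 10 of interferon-inducible GTPases. A match describes these letters and is not a measured binding site.

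The labels and the naive state were checked first. Gpr34 (ENSMUSG00000040229, chromosome X from 13632089 to 13640858, GRCm38) was counted 199 to 324 times in each naive and 65 to 125 times in each LPS-treated wild-type library. Among libraries labelled knockout, the naive replicates 2 and 4 held 0 and 4 such counts but replicate 3 held 120, and with LPS replicate 2 held 0 but replicates 3 and 4 held 117 and 104. So 3 of the 6 libraries labelled knockout went against their label, and every direction below is one of libraries labelled knockout. The interaction of Gpr34 itself was 2.21 on the log2 scale (SE 1.86, unadjusted p = 0.259 by edgeR's quasi-likelihood test). It was 5.95 (unadjusted edgeR p = 0.0105) without naive replicate 3 and -3.35 without those 3 libraries, where fitted values against groups at or near 0 counts depend on the prior count. Reads of Cask, whose span holds Gpr34 on the opposite strand, may be among these counts. Total counts were 38998746 to 74164853 per library, and CPM values below use the TMM-scaled library size.

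Naive replicate 3 labelled knockout stood apart from the other 5 naive libraries. On the first principal component, which held 47.8% of the variance, it lay at -32.6, where the other naive libraries lay between -75.9 and -84.8 and the LPS libraries between 69.6 and 76.8. Its place between the naive (0%) and LPS (100%) wild-type means was then taken gene by gene. Over 1421 genes raised at least 2-fold by LPS in wild-type cells its median place was 24.7%, where naive replicates 2 and 4 labelled knockout lay at -1.07% and 0%. Over 1449 lowered genes it lay at 37.0%, and the other 2 at -0.56% and 1.02%. The LPS libraries labelled knockout lay at 91.3 to 99.6% for raised and 90.8 to 94.2% for lowered genes. Because the wild-type libraries chose these genes, places just under 100% carry no reading of their own.

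**Figure D1:**
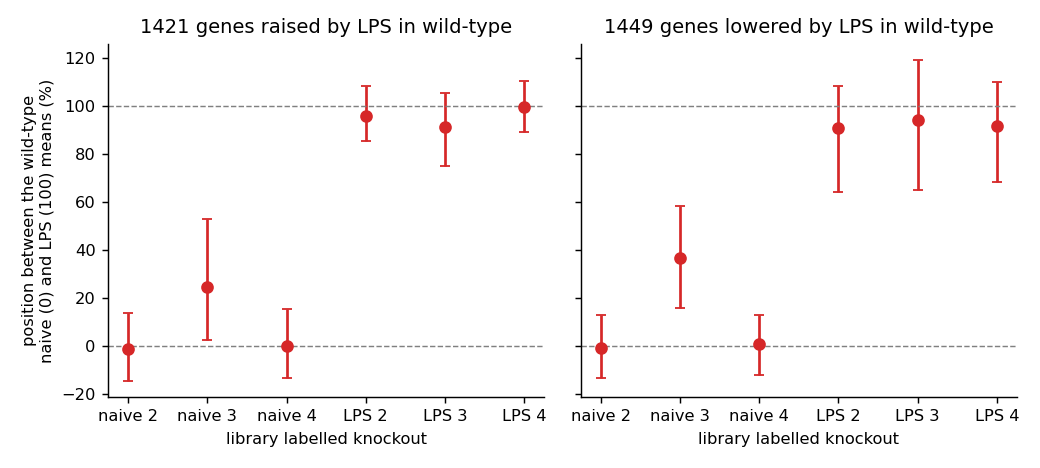
Place of each library labelled knockout between the wild-type naive mean (0%) and the wild-type LPS mean (100%), for genes raised (left) or lowered (right) at least 2-fold by LPS in wild-type cells. Points are medians over genes and bars span the middle 50% of the genes. Naive replicate 3 lies at 24.7% and 37.0%, apart from naive replicates 2 and 4.

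In that library 20 of 23 inflammatory cytokine genes and 21 of 22 maturation genes were above the mean of naive replicates 2 and 4, by a median of 1.29 and 1.005 on the log2 scale. Of 28 cell cycle genes 1 was above it, and the median difference was -1.66. None of 15 macrophage and monocyte markers was above it, with a median of -1.36, and their summed level ran from 1482 to 4723 CPM in naive libraries labelled knockout against 3406 to 3819 CPM in naive wild-type. The 17 dendritic cell markers summed to 12390 to 22070 CPM in the 12 libraries, of which Cd74, also in the MHC class II list, held 7965 to 12693 CPM. In LPS-treated wild-type 1 of the 17 was at 0. This naive library enters the LPS effect of the cells labelled knockout, so the list medians that it moves, and most of the named genes that it moves, are also given without it. What set the library apart was not tested.

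The 2 responses were alike in rank. Spearman's rho between the log2 fold changes of the genotypes was 0.753 over 16965 tested genes (Pearson's r 0.650), 0.867 over 13437 genes with a group mean of at least 1 CPM, and 0.930 over 8530 genes with at least 10 CPM. Over 3528 genes under 1 CPM it was 0.434. These values describe likeness across genes, which are not independent replicates, and the responses share no library. The log2 fold changes had the same sign in both genotypes for 81.8% of all tested genes and 85.8% of those with at least 1 CPM. Of 7698 genes (45.4%) called for the mean LPS effect over both genotypes by edgeR at an adjusted p of 0.05, 99.8% did. A mean over both genotypes favours genes of like sign, so this last share has no reading of its own.

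**Figure D2:**
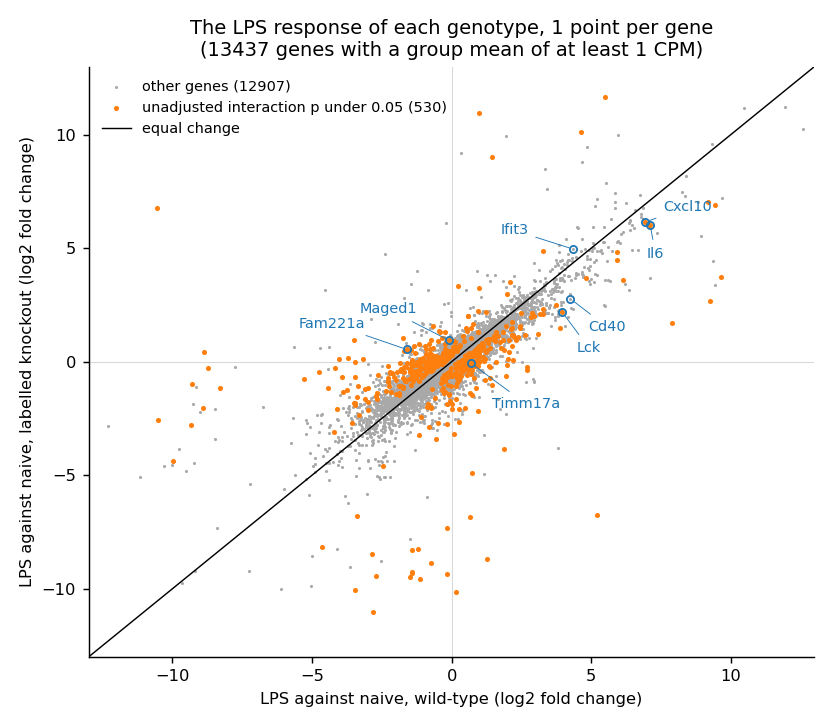
LPS against naive log2 fold change in wild-type (horizontal) and labelled knockout (vertical) cells, 1 point per gene, for 13437 genes with a group mean of at least 1 CPM. Orange points have an unadjusted interaction p under 0.05, circles mark named genes, and the line is equal change. Most genes lie along the line, and Lck and Cd40 lie below it.

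How alike the responses were within a genotype gave the scale for this. With 1 LPS library set against 1 naive library, differences that share no library had a rho of 0.630 to 0.636 within wild-type and 0.504 to 0.638 within labelled knockout. Between the genotypes it was 0.528 to 0.650, with a median of 0.611. Without the difference of replicate 3 labelled knockout, which drops LPS replicate 3 together with naive replicate 3, the range between genotypes was 0.603 to 0.650. That range holds the wild-type range. All pairs with that difference lay at 0.504 to 0.546, which cannot be assigned to its naive or its LPS library alone.

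The order of the strongest genes was shared less for lowered than for raised genes. Among genes with at least 1 CPM, the 100 most raised of each genotype shared 71 and the 500 most raised shared 412 (82.4%). The 100 most lowered shared 43 and the 500 most lowered 329 (65.8%). No test was made of that difference. The 10 genes with the largest mean fall, among them Bmx, Ryr3 and Nxpe5, had 0 counts in at least 4 of the 6 LPS libraries, and a fitted fold change against 0 depends on the prior count.

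Of the 50 most raised genes of each genotype, again with at least 1 CPM, 29 were shared (58%), and most of those named here reached levels that overlapped between the genotypes. Ptgs2, the inducible enzyme of prostaglandin synthesis, was at 1.15 to 1.57 CPM in naive wild-type and 1.62 to 2.00 CPM in naive libraries labelled knockout. With LPS it was at 375, 409 and 533 CPM in wild-type and 565, 584 and 461 CPM in libraries labelled knockout. Its response was 8.40 (SE 0.22) and 8.17 (SE 0.21) on the log2 scale, rank 14 and 15 among raised genes. Nos2, which makes nitric oxide, reached 247, 187 and 286 CPM in wild-type and 177, 109 and 276 CPM in libraries labelled knockout, from 0.458 to 1.41 CPM in naive libraries. The LPS ranges of the genotypes overlapped for both genes. Csf3, the granulocyte growth factor, was at 11.7, 14.2 and 17.3 CPM after LPS in wild-type and at 18.9, 31.8 and 16.2 CPM in libraries labelled knockout, from at most 0.0352 CPM. Il23a, a subunit of interleukin 23, reached 9.74 to 10.6 CPM and 7.49 to 16.3 CPM from at most 0.172 CPM. The acute phase gene Saa1 had 0 counts in all 6 naive libraries and 7.84 to 10.2 CPM after LPS in wild-type against 2.70 to 7.49 CPM in libraries labelled knockout, ranges that did not overlap. Ms4a4d and Slc1a2 overlapped after LPS but differed in response. Ms4a4d had 5.48 in wild-type (rank 61) and 11.66 in cells labelled knockout (rank 1). It had 15, 0 and 30 counts in naive wild-type and 0 in naive libraries labelled knockout, so its size depends on the prior count. The interaction of Slc1a2 was -2.16 (SE 0.77), and -2.01 without naive replicate 3 labelled knockout.

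In size the medians of the 2 responses were close, and the sign of the difference rested on naive replicate 3 labelled knockout. Genes raised at least 2-fold for the mean effect (1435, 8.46%) had a median log2 change of 1.82 in wild-type and 1.59 in cells labelled knockout. Their median interaction was -0.20, with 1001 of the 1435 smaller in cells labelled knockout. Genes lowered at least 2-fold (1670, 9.84%) had a median size of 1.83 and 1.67, with 1007 smaller in cells labelled knockout. Without naive replicate 3 labelled knockout the same rule took 1526 raised and 1841 lowered genes. The median interaction of these raised genes was 0.055 and 43.4% were smaller in cells labelled knockout. Turned so that a negative value is a smaller response, the median interaction of the lowered genes was -0.17 in the first set and 0.036 in the second. With all 12 libraries the size difference of the raised genes lay on the naive side: the genotypes differed by a median of 0.14 before LPS and -0.08 after it. For lowered genes the median was -0.17 before LPS and near 0 after it.

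The number of called genes moved with the naive libraries labelled knockout that entered the fit. In wild-type cells 5743 genes passed (33.9%), 3064 higher and 2679 lower, and in cells labelled knockout 4875 passed (28.7%), 2601 higher and 2274 lower. Without naive replicate 3 labelled knockout 6110 (36%) and 5635 (33.2%) passed, so wild-type cells still had more. Without naive replicate 2 or 4 labelled knockout, 3619 or 3456 passed in cells labelled knockout. Without composition factors the splits were 1599 higher and 6128 lower in wild-type and 1441 and 4986 in cells labelled knockout, since the median over all genes moved to -0.44 and -0.35. The all-gene median of the interaction moved less with this scaling, from -0.02 to 0.06, but its sign turned. Both lists shared 4080 genes, 71.0% of the wild-type list and 83.7% of the other. Of 1663 genes called in wild-type only, 95.4% had the same sign in cells labelled knockout, and 242 had an unadjusted interaction p under 0.05. Of 795 genes called in cells labelled knockout only, 95.7% had the same sign and 116 had such a p. Being called in 1 genotype only is not a test of the difference, and none of these genes passed for the interaction in edgeR.

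No gene passed for the interaction in edgeR or limma voom. edgeR's quasi-likelihood test called 0 of 16965 genes (0%), limma voom 0 and DESeq2 21 (0.124%). At an unadjusted p under 0.05 there were 678 genes (4%), 342 (2.02%) with a larger and 336 (1.98%) with a smaller value in cells labelled knockout. In simulated counts with 3 libraries a group, the same test found 69 of 100 genes given a 4-fold interaction and 20 of 100 given a 2-fold one. Those genes were drawn from genes with a mean of at least 1 CPM. No simulated library was set apart as naive replicate 3 labelled knockout was, so these shares do not hold for all tested genes. Without naive replicate 3 labelled knockout it again called 0, with 938 at an unadjusted p under 0.05 (5.53%). Without the 3 libraries labelled knockout with Gpr34 reads, which leaves 1 LPS library labelled knockout, it called 3 (0.0177%), with 950 at such a p (5.6%). The genes named next have the smallest unadjusted p in each direction among genes with a symbol and at least 1 CPM in a group, so their values are descriptions of where the responses parted most, and the smallest adjusted p from edgeR was 0.9999.

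Most of the 10 genes with a larger value in cells labelled knockout fell with LPS in wild-type cells and were not called in the others. That held for 9 of the 10, and in 9 of the 10 the LPS libraries of the genotypes did not overlap, against 17.5% of all tested genes. Maged1 (ENSMUSG00000025151, chromosome X from 94535474 to 94542143), a member of the melanoma antigen family, was the exception. It was at 63.3, 69.9 and 52.5 CPM in naive and 69.4, 52.7 and 53.9 CPM in LPS-treated wild-type libraries. It was at 39.1, 41.2 and 45.7 CPM in naive and 67.0, 87.2 and 86.8 CPM in LPS-treated libraries labelled knockout. The naive libraries labelled knockout were below all others, and the gene rose in cells labelled knockout (log2 fold change 0.94, edgeR adjusted p = 0.00103). Its interaction was 1.01 (SE 0.21, unadjusted edgeR p = 0.000618).

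Fam221a (ENSMUSG00000047115, chromosome 6 from 49367739 to 49390539) was at 1.78, 2.21 and 1.47 CPM in naive and 0.743, 0.381 and 0.666 CPM in LPS-treated wild-type libraries. In libraries labelled knockout it was at 0.985, 0.751 and 1.296 CPM in naive and 1.42, 1.54 and 1.45 CPM with LPS. Here the groups separated in opposite ways, low after LPS in wild-type and high after LPS in the others, with an interaction of 2.16 (SE 0.46). Zfp367, a zinc finger factor (ENSMUSG00000044934, chromosome 13 from 64133018 to 64153202), was at 6.38, 5.19 and 5.87 CPM in naive wild-type and 4.20, 5.11 and 7.72 CPM in naive libraries labelled knockout. In LPS-treated libraries it lay at 1.38, 2.35 and 2.06 CPM in wild-type and 4.98, 5.85 and 5.33 CPM in libraries labelled knockout. The naive ranges overlapped and the LPS ranges did not, and the interaction was 1.51 (SE 0.36).

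Sphk1, the kinase that makes sphingosine 1-phosphate (ENSMUSG00000061878, chromosome 11 from 116530925 to 116536674), had the same shape. It was at 43.9, 51.3 and 44.8 CPM in naive wild-type and 48.7, 44.4 and 51.7 CPM in naive libraries labelled knockout. With LPS it was at 25.8, 23.0 and 26.2 CPM in wild-type and 46.1, 52.8 and 35.1 CPM in libraries labelled knockout. It fell in wild-type (log2 fold change -0.90, edgeR adjusted p = 0.000675), while the value in cells labelled knockout was -0.11. Its interaction was 0.79 (SE 0.20). Pcnt, a scaffold protein of the centrosome (ENSMUSG00000001151, chromosome 10 from 76351263 to 76442786), fell in wild-type from 36.7, 37.3 and 36.7 CPM to 26.1, 24.2 and 23.8 CPM. In libraries labelled knockout it was at 32.0, 36.1 and 34.0 CPM before and 31.5, 38.7 and 33.3 CPM after LPS, so these ranges overlapped. The interactions of the other 6 were 0.60 for Pcnt, 0.60 for Zer1, 1.71 for the zinc finger gene Zfp287, 1.03 for Ankmy2, 1.23 for Syce2, a protein of the meiotic synaptonemal complex, and 0.67 for the kinase gene Stk38l. Each of the 10 kept its sign without naive replicate 3 labelled knockout and without the 3 libraries labelled knockout with Gpr34 reads. Both fits reuse libraries in which these genes were chosen for a small p, so a kept sign is no separate support.

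**Figure D3:**
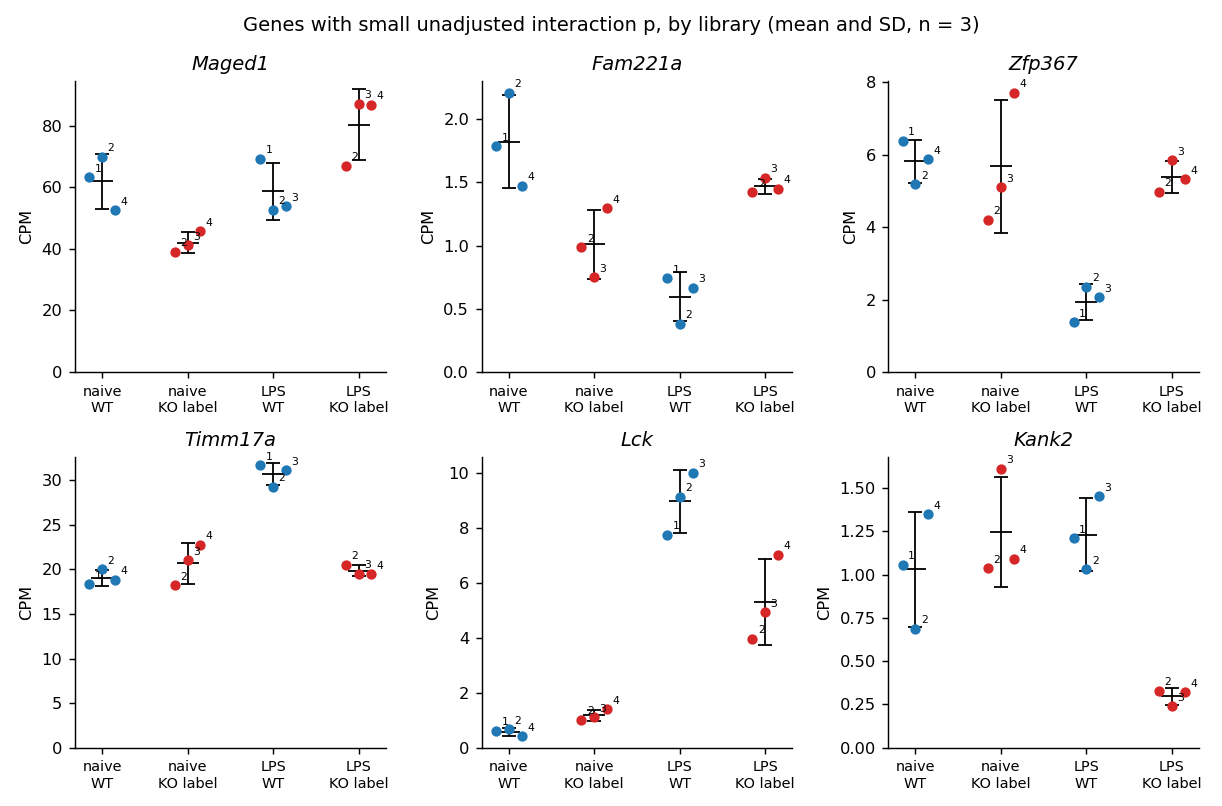
CPM in each of the 12 libraries for Maged1, Fam221a, Zfp367, Timm17a, Lck and Kank2, with the mean and SD of each group and the replicate number beside each point. Blue points are wild-type and red points labelled knockout. The LPS libraries of the genotypes do not overlap for Fam221a, Zfp367, Timm17a, Lck or Kank2, while for Maged1 they overlap.

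Of the 10 genes with a smaller value in cells labelled knockout, 7 rose with LPS in wild-type cells and 1 of the 10 rose in the others. Timm17a, a channel subunit of the inner mitochondrial membrane translocase (ENSMUSG00000062580, chromosome 1 from 135295213 to 135313778), was at 18.3, 20.0 and 18.8 CPM in naive and 31.7, 29.3 and 31.1 CPM in LPS-treated wild-type libraries. It was at 18.2, 21.0 and 22.8 CPM in naive and 20.5, 19.5 and 19.4 CPM in LPS-treated libraries labelled knockout. Only LPS-treated wild-type stood out, and the gene rose there (log2 fold change 0.69, edgeR adjusted p = 0.000496). Its interaction was -0.75 (SE 0.15, unadjusted edgeR p = 0.000327), the smallest p of the 20.

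Lck, a kinase best known from T cells (ENSMUSG00000000409, chromosome 4 from 129548344 to 129573641), rose in both genotypes. It was at 0.625, 0.671 and 0.421 CPM in naive wild-type and 1.02, 1.11 and 1.40 CPM in naive libraries labelled knockout. After treatment it was at 7.76, 9.14 and 10.0 CPM in wild-type and 3.96, 4.93 and 7.03 CPM in libraries labelled knockout. The libraries labelled knockout were thus above wild-type before LPS and below it after, with responses of 3.97 (SE 0.28) and 2.18 (SE 0.26) and an interaction of -1.79 (SE 0.37). The 12 T and NK cell markers, Lck among them, summed to 31.4 to 34.6 CPM in naive wild-type, 32.4 to 41.6 CPM in naive labelled knockout, 47.3 to 58.8 CPM in LPS-treated wild-type and 51.7 to 62.7 CPM in LPS-treated labelled knockout. After LPS that sum was not lower in libraries labelled knockout. Of the 12 markers 10 had counts in any library. Of these 10, 5 were at 0 in LPS-treated wild-type, Cd3g of the T cell receptor complex among them, and 1 in LPS-treated labelled knockout.

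Kank2, a regulator of the actin cytoskeleton (ENSMUSG00000032194, chromosome 9 from 21766784 to 21798744), was low throughout. It was at 1.06, 0.687 and 1.35 CPM in naive and 1.21, 1.03 and 1.45 CPM in LPS-treated wild-type libraries. It was at 1.04, 1.61 and 1.09 CPM in naive and 0.330, 0.240 and 0.320 CPM in LPS-treated libraries labelled knockout, the one group that stood apart. Its interaction was -2.32 (SE 0.48), and it fell in cells labelled knockout (edgeR adjusted p = 0.00138). Ly86 encodes MD-1, the partner of the Tlr4-like receptor Cd180 (ENSMUSG00000021423, chromosome 13 from 37345208 to 37419036). It was at 9.89, 10.6 and 10.6 CPM in naive and 14.03, 13.01 and 19.5 CPM in LPS-treated wild-type libraries. In libraries labelled knockout it was at 15.9, 11.4 and 12.5 CPM in naive and 11.2, 10.2 and 9.07 CPM with LPS. The groups separated in opposite ways, and the interaction was -0.97 (SE 0.25).

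The rest of the 10 were the DNA repair gene Apex2 at -0.82, Tmem237 at -0.78, Tmem274 at -2.15, Trdmt1 at -1.09, Alg5 at -0.58 and the matrix enzyme gene Loxl4. Loxl4 had 2, 0 and 0 counts in naive wild-type and 0, 75 and 35 counts in naive libraries labelled knockout, and 77 to 148 and 75 to 89 counts after LPS, so no size is given for it. Apex2 shares 23264 bases with Alas2 on the opposite strand. The sources used here do not say whether the counting used strand, and reads of such a pair cannot then be told apart. Smaller such overlaps hold for Ankmy2 with Bzw2, Syce2 with Gcdh and Tmem274 with Nmnat1. All 10 kept their sign in the same 2 fits, with the same limit.

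DESeq2 called 10 genes higher and 11 lower, and 11 of its 21 had a group whose 3 libraries summed to at most 3 counts. With a group mean of at least 1 CPM its calls included 7 of the genes above, Lck, Pcnt, Maged1, Kank2, Zer1, Fam221a and Timm17a. The smallest of their DESeq2 adjusted p-values was 3.84e-04, for Timm17a. It also called Eci3, an enzyme of fatty acid breakdown in peroxisomes, which in wild-type libraries went from 48, 60 and 40 counts without LPS to 0, 8 and 0 counts with it. In libraries labelled knockout Eci3 had 59, 40 and 26 counts in naive and 49, 78 and 57 counts with LPS, and its interaction in edgeR was 4.44 (SE 1.18). Like Apex2, Eci3 overlaps a gene on the opposite strand. It shares 9262 bases with 4933417A18Rik, whose interaction was 7.84, and reads of this pair may not be told apart. The gene ENSMUSG00000091644, for which the reference tables give no symbol, was called too and is given here after its values were seen. It had a highest group mean of 1.34 CPM, a DESeq2 adjusted p of 0.0178 and an interaction of -2.15 in edgeR. The other 5 calls with at least 1 CPM each had a group whose 3 libraries held 0 counts. Adgrg5, an adhesion receptor, was at 0, 9.07 and 0 CPM in LPS-treated wild-type and at 0 in LPS-treated libraries labelled knockout. Robo4, an endothelial receptor, was at 2.39, 0 and 0 CPM and at 0 in the same groups, Dnm1 was at 0, 2.87 and 2.30 CPM and at 0, and Cyp4f15 was at 0 in all LPS libraries but LPS replicate 4 labelled knockout, at 7.16 CPM. Without that library its interaction turned from 9.46 to -0.53.

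One gene was called in both responses in opposite directions. Smarca1, an ATPase that remodels chromatin (ENSMUSG00000031099, chromosome X from 47809368 to 47892974), went in wild-type libraries from 60, 50 and 18 counts without LPS to 0, 2 and 0 counts with it. It had 0, 0 and 1 counts in naive and 0, 35 and 16 counts in LPS-treated libraries labelled knockout. The fall in wild-type (edgeR adjusted p = 0.0252) and the rise in cells labelled knockout (edgeR adjusted p = 0.0276) passed. The interaction did not pass in edgeR but was among the DESeq2 calls (DESeq2 adjusted p = 0.0178). LPS replicates 3 and 4, which carry the rise, are the LPS libraries labelled knockout with Gpr34 reads. Over all genes, LPS and naive libraries separated in opposite ways in the 2 genotypes for 28 (0.165%) and in the same way for 5385 (31.7%).

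The gene groups of the response are described next by the median interaction of their tested genes, beside a median of -0.02 and 52.7% of values below 0 over all genes. Without naive replicate 3 labelled knockout these were 0.02 and 47.2%, and without the 3 libraries with Gpr34 reads -0.03 and 53.8%. Counts of members that rose or fell are to be read beside the calls over all tested genes. Of these, 18.1% rose and 15.8% fell in wild-type, and 15.3% and 13.4% in cells labelled knockout. Without naive replicate 3 labelled knockout 36% and 33.2% passed in either direction. No member of any group passed for the interaction in edgeR with all 12 libraries. The plot of list medians gives all groups in the 3 fits.

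**Figure D4:**
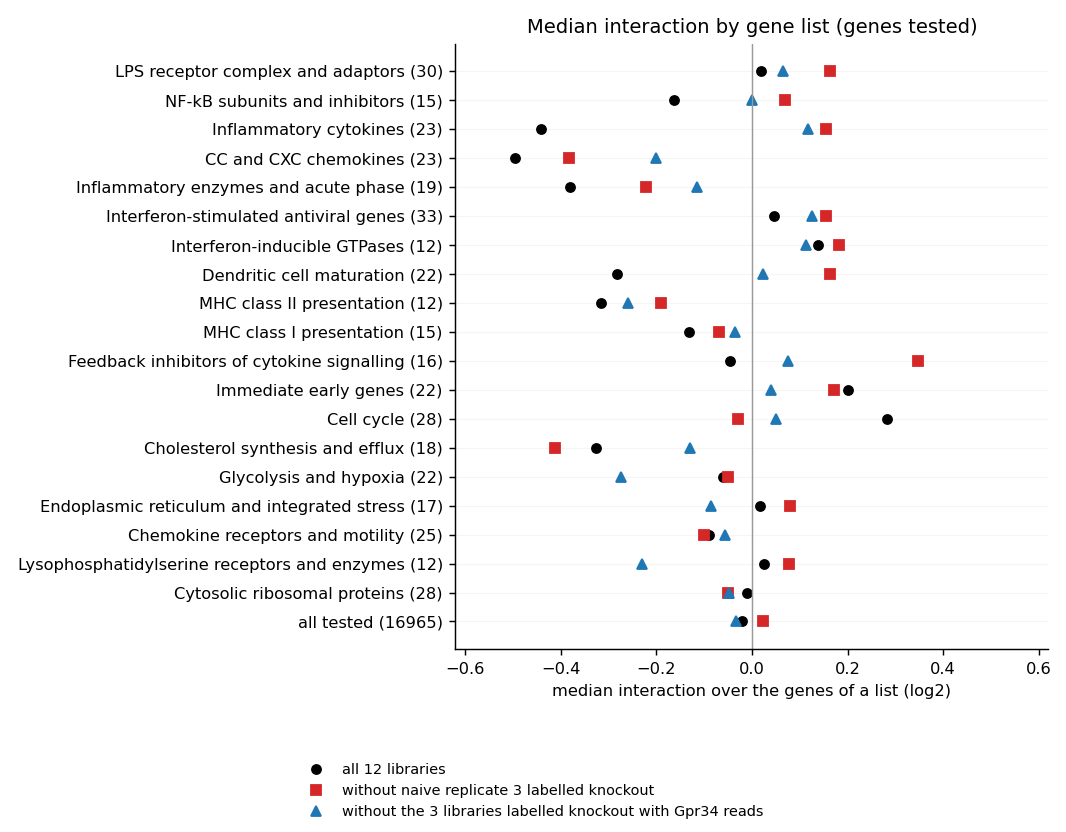
Median interaction (log2, labelled knockout minus wild-type) over the tested genes of 19 lists and over all tested genes, with all 12 libraries (circles), without naive replicate 3 labelled knockout (squares) and without the 3 libraries labelled knockout with Gpr34 reads (triangles). Cytokines and maturation genes are among the lists that cross 0 between the fits. Chemokines, inflammatory enzymes, MHC class II and cholesterol genes stay below it, as do MHC class I, motility, glycolysis and ribosomal protein genes.

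In the receptor and adaptor list of 30 genes, 17 rose and 3 fell in wild-type and 16 rose and 3 fell in cells labelled knockout, with a median interaction of 0.02 and 14 values below 0. The median was 0.16 with 9 below 0 without naive replicate 3 labelled knockout. Myd88, the adaptor of the NF-kB arm, was at 69.7, 70.4 and 79.7 CPM in naive wild-type and 82.9, 73.97 and 81.7 CPM in naive libraries labelled knockout. With LPS it stood at 155, 133 and 164 CPM in wild-type and 123 to 138 CPM in libraries labelled knockout, where the ranges overlapped, and its interaction was -0.33 (SE 0.14). The LPS carrier Cd14 had -0.56 (SE 0.31), or -0.31 without naive replicate 3 labelled knockout, the kinase gene Tbk1 -0.25 (SE 0.15) and Irf3 0.22 (SE 0.11). Of 15 genes of NF-kB subunits and inhibitors, 14 rose in each genotype. Their median interaction went from -0.16, with 11 values below 0, to 0.07 with 4 below 0 without naive replicate 3 labelled knockout. Tnfaip3, which encodes the inhibitor A20, shows how. It was at 89.4, 95.9 and 113 CPM in naive wild-type and 92.9, 260.3 and 91.2 CPM in naive libraries labelled knockout, so replicate 3 alone was raised, and its interaction was -0.67 with that library and 0.04 without it. Nfkbiz, a nuclear co-factor, went from -0.58 to -0.09, Nfkbie from -0.53 to -0.12 and Tnip1 from -0.40 to -0.14.

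All 23 tested inflammatory cytokine genes rose in both genotypes, by a median of 4.94 in wild-type and 4.43 in cells labelled knockout. The list's median interaction was -0.44, with 19 of 23 below 0, and it was 0.15 with 9 of 23 below 0 without naive replicate 3 labelled knockout. Il6 (ENSMUSG00000025746, chromosome 5 from 30013114 to 30019981), whose promoter is shown above, was at 3.64, 3.36 and 4.53 CPM in naive wild-type and 4.68, 12.2 and 5.16 CPM in naive libraries labelled knockout. After LPS it was at 464, 531 and 609 CPM in wild-type and 551, 421 and 462 CPM in libraries labelled knockout. The LPS ranges overlapped, and naive replicate 3 was the high naive library. The interaction was -1.10 (SE 0.43), and -0.49 without that library.

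Il12b, the shared subunit of interleukins 12 and 23 (ENSMUSG00000004296, chromosome 11 from 44400063 to 44414033), was at 38.9 to 46.6 CPM in naive wild-type and 69.0, 137 and 45.7 CPM in naive libraries labelled knockout. With LPS it was at 5661, 5486 and 6484 CPM and 5160.1, 5850.4 and 5215 CPM, ranges that overlapped. Its interaction was -1.08 (SE 0.42) and -0.51 without naive replicate 3 labelled knockout. Csf1, the macrophage growth factor, had -0.54 and -0.35 in these fits, Il12a, the other subunit of interleukin 12, -2.56 and -1.37, and Ebi3, a subunit of interleukin 27, -1.02 and -0.20. Il12a had 2, 0 and 4 counts in naive wild-type and 8, 26 and 0 counts in naive libraries labelled knockout. Its size (SE 1.11) thus depends on the prior count, and its LPS ranges overlapped, at 21.5 to 23.9 CPM and 12.5 to 29.3 CPM. Il6, Il12b, Csf1, Il12a and Ebi3 kept a negative value in both fits, while the median of the list did not. They were named for the smallest interaction p in the list, so the kept sign is no separate support.

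Of 23 tested CC and CXC chemokine genes, 17 rose and 1 fell in wild-type and 17 rose and 2 fell in cells labelled knockout. The median of the interaction was -0.49 with 21 of 23 below 0. It was -0.38 with 16 below 0 without naive replicate 3 labelled knockout and -0.20 with 14 below 0 without the 3 libraries with Gpr34 reads. Cxcl10, which draws activated T cells (ENSMUSG00000034855, chromosome 5 from 92346638 to 92348889), was at 2.52 to 3.27 CPM in naive wild-type and 2.83, 3.04 and 3.58 CPM in naive libraries labelled knockout. In LPS-treated libraries it lay at 419, 299.6 and 325 CPM in wild-type and 238, 161 and 272 CPM in libraries labelled knockout. Here naive replicate 3 was not raised, the LPS ranges did not overlap, and the interaction was -0.78 (SE 0.28) with and -0.78 without that library. Ccl4, a chemokine (ENSMUSG00000018930, chromosome 11 from 83662584 to 83664683), was at 253, 217 and 272 CPM after LPS in wild-type and 283, 134 and 185 CPM in libraries labelled knockout. Its LPS ranges overlapped, and its interaction of -1.11 (SE 0.43) was -0.86 without naive replicate 3 labelled knockout. Cxcl14 had -2.08 and -2.37 in these fits, at levels of at most 2.00 CPM.

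Of 19 tested genes of inflammatory enzymes and acute phase proteins 16 rose in each genotype. The median interaction was -0.38 with 18 below 0, and -0.22 with 16 below 0 without naive replicate 3 labelled knockout. Ptges, which makes prostaglandin E from the product of Ptgs2 (ENSMUSG00000050737, chromosome 2 from 30889471 to 30929863), was at 0.998 to 1.91 CPM in naive wild-type and 2.06, 4.64 and 2.53 CPM in naive libraries labelled knockout. After treatment it was at 96.1, 68.2 and 94.4 CPM in wild-type and 72.7, 44.6 and 90.6 CPM in libraries labelled knockout. The naive libraries labelled knockout were all higher than wild-type, the LPS ranges overlapped, and the interaction was -1.44 (SE 0.49) with and -0.97 without naive replicate 3.

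All 33 interferon-stimulated antiviral genes rose in both genotypes, by a median of 2.66 in wild-type and 2.82 in cells labelled knockout. The list's median interaction was 0.05 with 9 below 0, and 0.16 with 5 below 0 without naive replicate 3 labelled knockout. Ifit3, which binds viral RNA together with Ifit1 (ENSMUSG00000074896, chromosome 19 from 34583531 to 34588731), was at 4.61, 2.91 and 3.24 CPM in naive wild-type and 1.99, 2.15 and 1.89 CPM in naive libraries labelled knockout. With LPS it stood at 77.1, 66.0 and 74.8 CPM in wild-type and 69.7, 39.1 and 80.6 CPM in libraries labelled knockout. The genotypes were apart before LPS and overlapped after it, with an interaction of 0.63 (SE 0.35). Isg15, a ubiquitin-like protein, was at 9.41 to 10.1 CPM in naive wild-type and 6.93, 21.7 and 8.00 CPM in naive libraries labelled knockout. Its interaction was -0.59 with naive replicate 3 and 0.16 without it, and that of Oasl1, a gene of the oligoadenylate synthetase family, -0.74 and 0.06. Oas3 had 0.22 and 0.20, and Ifnb1, interferon beta itself, was at most 0.686 CPM in any library. Ifit3 has a near-identical neighbour, Ifit3b, and Tgtp1 one, Tgtp2, so reads may be split between copies.

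Of 12 tested interferon-inducible GTPase genes 11 rose in wild-type and 12 in cells labelled knockout, with a median interaction of 0.14. Tgtp1, one of these GTPases that act on the vacuoles of parasites, went the other way. It was at 1.43, 2.08 and 2.53 CPM in naive wild-type and 2.34, 3.80 and 2.47 CPM in naive libraries labelled knockout. After LPS it was at 21.3, 18.0 and 19.2 CPM in wild-type and 12.8, 14.2 and 16.6 CPM in libraries labelled knockout. The naive ranges overlapped and the LPS ranges did not, and the interaction was -0.94 (SE 0.33). Gbp9 had 0.70 (SE 0.35) and Gbp2 -0.27 (SE 0.16).

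Maturation genes moved with naive replicate 3. Of 22 tested genes 19 rose in each genotype and 1 fell in wild-type. The median of the interaction was -0.28 with 17 below 0, and 0.16 with 6 below 0 without that library. Cd40, the receptor for T cell help (ENSMUSG00000017652, chromosome 2 from 165055627 to 165072948), was at 92.5, 90.4 and 114 CPM in naive wild-type and 83.3, 477 and 90.3 CPM in naive libraries labelled knockout. With LPS it was at 1946, 1692 and 2012 CPM in wild-type and 1714, 1221 and 1535 CPM in libraries labelled knockout. Naive replicate 3 was above all other naive libraries, and the interaction was -1.47 (SE 0.76) with it and -0.13 without it. Ccl22, which draws Ccr4-bearing T cells, was at 2123, 2315 and 2256 CPM in naive wild-type and 1847, 7942 and 1937 CPM in naive libraries labelled knockout. Its interaction was -1.002 (SE 0.63) with that library and 0.07 without it. For Cd70, a ligand for T cell Cd27, the values were -1.92 and 0.42, and for the chemokine gene Ccl17 -0.94 and -0.38.

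**Figure D5:**
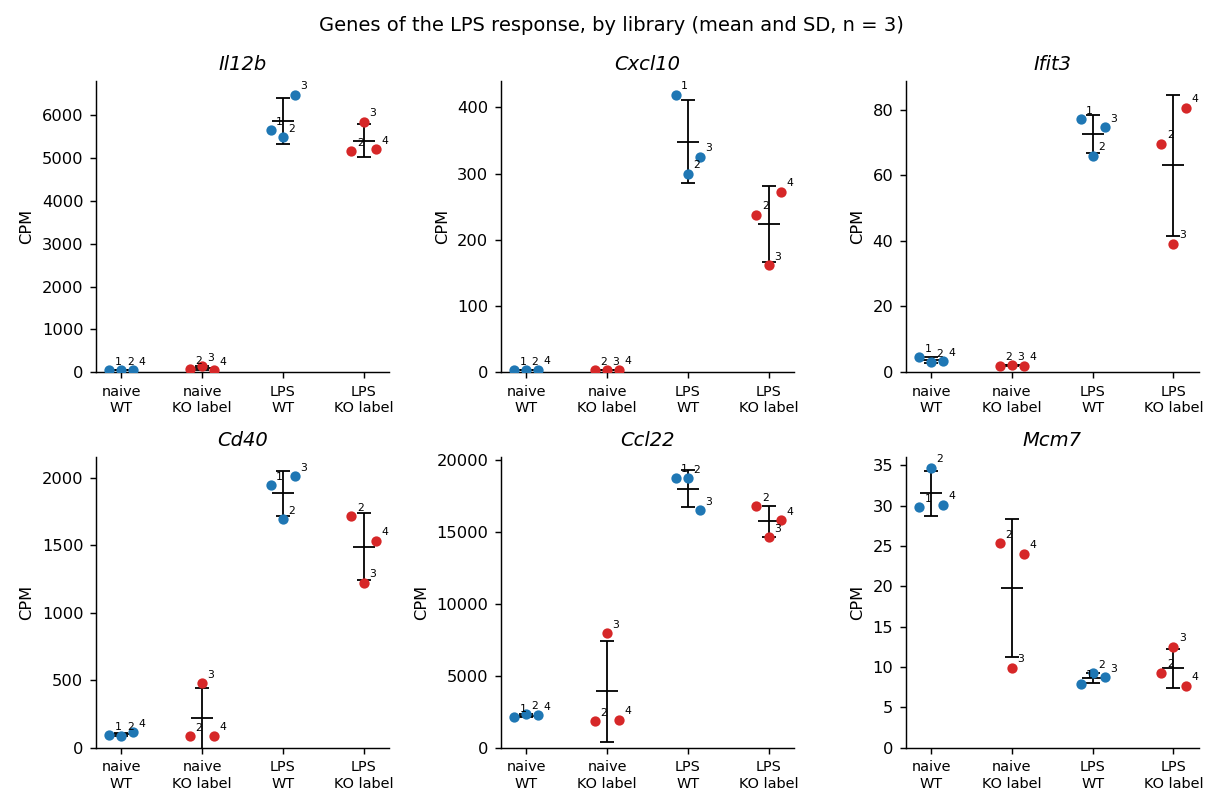
CPM in each of the 12 libraries for Il12b, Cxcl10, Ifit3, Cd40, Ccl22 and Mcm7, with the mean and SD of each group and the replicate number beside each point. Blue points are wild-type and red points labelled knockout. Naive replicate 3 labelled knockout lies at 477 CPM for Cd40 and 9.92 CPM for Mcm7, apart from the other naive libraries, but not for Cxcl10 or Ifit3.

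Antigen presentation genes mostly had interactions below 0. Of 12 tested MHC class II genes 6 rose and 1 fell in wild-type, and 2 rose and 1 fell in cells labelled knockout. In cells labelled knockout 4 rose and 2 fell without naive replicate 3, and the wild-type calls were 6 and 1 again. The median interaction was -0.32 with 11 below 0, -0.19 with 10 below 0 without that library, and -0.26 with 10 below 0 without the 3 libraries with Gpr34 reads. H2-DMb1, a chain of the peptide loader of class II, was at 70.9 to 80.8 CPM in naive wild-type and 69.6 to 92.8 CPM in naive libraries labelled knockout. In LPS-treated libraries it lay at 86.0, 112 and 109 CPM and 83.9, 83.6 and 86.8 CPM, with an interaction of -0.35 (SE 0.18). H2-Ab1, of the same list, had -0.53 (SE 0.25) with and -0.25 without naive replicate 3 labelled knockout. All 15 tested class I genes rose in wild-type and 13 in cells labelled knockout, and all 15 values were below 0, with a median of -0.13. Psmb10, a subunit of the immunoproteasome, was at 163, 158 and 165 CPM after LPS in wild-type and 139.9, 124 and 140.4 CPM in libraries labelled knockout, from 51.4 to 56.3 CPM in all naive libraries. Those LPS ranges did not overlap, and its interaction was -0.26 (SE 0.11). B2m, the light chain of class I, had -0.27 (SE 0.12). Without naive replicate 3 labelled knockout 10 of the 15 class I values were below 0, with a median of -0.07, and 12 genes rose in cells labelled knockout. Without the 3 libraries with Gpr34 reads 9 class I values were below 0, and their median of -0.03 was that of all tested genes.

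Of 16 feedback inhibitors of cytokine signalling 13 rose in each genotype, and the median interaction was -0.05. It was 0.05 without composition factors and 0.35 without naive replicate 3 labelled knockout, so its sign rested on the setting. Immediate early genes, transcription factors and others that cells switch on within minutes of a stimulus, leaned to larger values in cells labelled knockout. Of 22 genes 8 rose and 4 fell in wild-type, and 9 rose and 2 fell in cells labelled knockout. In that list 6 fell in wild-type and 5 in cells labelled knockout without naive replicate 3. The list's median interaction was 0.20 with 5 below 0, 0.17 with 6 below 0 without naive replicate 3 labelled knockout, and 0.04 without the 3 libraries with Gpr34 reads. Ier2 was at 8.43, 8.30 and 6.27 CPM in naive wild-type and 4.41, 4.23 and 4.34 CPM in naive libraries labelled knockout. With LPS it was at 10.3, 8.24 and 11.8 CPM and 8.79, 9.96 and 10.1 CPM. The naive ranges were apart and the LPS ranges overlapped, and its interaction was 0.76 (SE 0.24). Nr4a1, a nuclear receptor, had 1.45 (SE 0.56) at levels of at most 5.21 CPM and Myc 1.003 (SE 0.51). Fos had 1.62 (SE 0.81), but naive wild-type replicate 1 was at 21.7 CPM against 5.40 and 5.12 CPM in replicates 2 and 4, and without it the interaction was 0.62.

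Cell cycle genes fell in both genotypes, 24 of 28 in wild-type and 23 in cells labelled knockout, with 1 higher in each. The median of the interaction was 0.28 with 6 below 0, and -0.03 with 16 below 0 without naive replicate 3 labelled knockout. Mcm7, a subunit of the replicative helicase, was at 29.8, 34.7 and 30.1 CPM in naive wild-type and 25.3, 9.92 and 24.0 CPM in naive libraries labelled knockout. After treatment it was at 7.95 to 9.21 CPM and 7.69 to 12.5 CPM, so naive replicate 3 lay among the LPS libraries. Its interaction was 0.87 (SE 0.42) with that library and 0.57 without it, and that of the mitotic kinase gene Aurka 0.93 and 0.54. Of 18 tested genes of cholesterol synthesis and efflux 4 rose and 1 fell in wild-type, and 3 rose and 2 fell in cells labelled knockout, where 5 fell without naive replicate 3. Their median interaction was -0.33 with 15 below 0, -0.41 with 13 below 0 without that library, and -0.13 with 14 below 0 without the 3 libraries with Gpr34 reads. Of 12 tested genes of lysophosphatidylserine receptors and enzymes 2 rose and 3 fell in each genotype, with a median interaction of 0.03 and 6 below 0. Without the 3 libraries with Gpr34 reads the median was -0.23 with 9 below 0, and 1 rose and 4 fell in cells labelled knockout. Lpar5, a receptor for lysophosphatidic acid in that list, was at 1.18 to 3.29 CPM in naive libraries, at 0 to 0.363 CPM in LPS-treated wild-type and at 0 in LPS-treated libraries labelled knockout. Genes of glycolysis, endoplasmic reticulum stress, motility and ribosomal proteins had medians between -0.09 and 0.02, and without composition factors those of glycolysis and ribosomal protein genes turned to 0.02 and 0.07. Without the 3 libraries with Gpr34 reads the median of the 22 glycolysis and hypoxia genes was -0.27, with 19 below 0 and 5 at an unadjusted p under 0.05 in edgeR.

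The side on which the genotypes parted was read for all 678 genes with an unadjusted interaction p under 0.05. In 458 of them the genotypes differed more after LPS and in 220 more before it. The same split over all tested genes was not taken, and the 678 were 4% of tested genes. The split is thus a description and has no reading of its own. In the raised genes the larger difference was before LPS in 919 of 1435 and in the lowered genes in 583 of 1670. After LPS the libraries of the genotypes did not overlap for 2976 genes (17.5%) and before it for 2218 (13.1%).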

How the data were processed

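RNA of 12 dendritic cell libraries was measured, and the 19 spleen libraries were not used here. The authors deposited whole-number read counts per Ensembl gene with no normalization, 1 file per library. Per the submitters' processing notes, the build was mm9 and the tools included TopHat 1.3.3, Bowtie, SAMtools, bedtools and DESeq, with no role stated. The annotation release, strandedness and handling of reads that map more than once were not given in the sources used here. Genes missing from a file counted as 0. A table of gene names gave a symbol for 22119 of 24186 IDs. Gene places are GRCm38 (GENCODE M21), found by Ensembl ID, and promoters are RefSeq's on GRCm38.p6. Groups and replicate numbers came from the titles. Of the counts up to 200, 57.8 to 59.0% were even, so some counts are not independent molecules, and SEs cover the spread between libraries only. Libraries of a group differed by more than sampling noise (smallest chi-square per gene 24.8).

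The 12 libraries entered 1 fit of edgeR 4.0.16 in R 4.3.3 with a mean per group: edgeR's filter on low counts, TMM factors, robust dispersions (biological coefficient of variation 0.311, 8 residual degrees of freedom), the quasi-likelihood F-test and Benjamini-Hochberg adjustment at 0.05 over 16965 genes. SEs were taken as the absolute log2 fold change over the square root of F. The test was tested on simulated counts with 200 changed genes among 16451; it called none in the wrong direction and 6 unchanged genes. Alternatives were DESeq2 1.42.0, limma 3.58.1 voom with sample weights, other scalings and filters, a replicate block, and leaving out libraries. Gene lists without naive replicate 3 or without the 3 libraries labelled knockout with Gpr34 reads, and that library's place over genes changed at least 4-fold, were added after the data were seen.

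The named genes are Gpr34 and, per direction, the 10 genes with the smallest unadjusted interaction p among those with a group mean of at least 1 CPM. DESeq2's calls with that mean, genes called in opposite directions and, per direction, the 10 largest mean LPS effects were added. So were up to 5 members per list with the smallest interaction p. The text names fewer, and some genes were passed over out of that order. Clone, predicted and receptor segment names and IDs with no symbol are left out. Cd3g and the genes near Tcof1 in the closing section were chosen after their values were seen. The members, lists and tests were chosen with earlier results of these data known, so a list's lean is a description and not independent support.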

Additional observations from a re-analysis of the deposited data

Results flagged for a closer look

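For 4 named genes the LPS and naive libraries separated in opposite ways in the 2 genotypes. The interaction was tested for each, and none passed in edgeR. Fam221a, at 2.16, fell in every LPS library against every naive library in wild-type and lay higher in all 3 LPS libraries labelled knockout. Eci3, at 4.44, had the same shape and was called by DESeq2, as was Fam221a. Apex2, at -0.82, and Ly86, at -0.97, lay higher with LPS in wild-type and lower with LPS in libraries labelled knockout. Eci3 and Apex2 each overlap a gene on the opposite strand, as given above. Over all genes with at least 1 CPM 19 of 13437 (0.141%) separated in this way. No other technical measure was compared with these values, and the cause was not tested.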

How the results depend on the processing

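The design limits what can be read. With 3 libraries a group 20 of 100 simulated 2-fold interactions were found, among genes with a mean of at least 1 CPM. Of 6 libraries labelled knockout 3 held Gpr34 reads. The interaction called 0 genes in edgeR under every scaling and filter tried, without any 1 library (0 to 0) and in limma voom, 21 in DESeq2, and 3 without the 3 libraries labelled knockout with Gpr34 reads. The rho of the responses was 0.867 with at least 1 CPM in 3 libraries, 0.736 in limma voom, 0.498 with no filter, 0.700 without those 3 libraries, and 0.724 to 0.751 without any 1 library. The median size difference of raised genes was -0.032 in limma voom, 0.014 without those 3 libraries and -0.240 to 0.055 without any 1 library. That of lowered genes was -0.044, 0.177 and -0.312 to 0.036. LPS calls without any 1 library were 4577 to 6110 in wild-type and 3456 to 5635 in cells labelled knockout.

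Replicate numbers gave no clear pairing of libraries (correlations of deviations 0.033, 0.009, 0.073, 0.075 and -0.008). Of 5 LPS libraries 2, replicates 2 and 3 labelled knockout, correlated best with their own number. Whether libraries with the same number share an animal or culture cannot be told from these values. With a replicate block within genotype the interaction called 0, LPS called 3795 in wild-type and 4164 in cells labelled knockout, rho was 0.736 and the lowered genes' difference -0.292. With a replicate block over all groups these were 0, 4479, 4228, 0.729 and -0.118.

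Of 69 named genes' interactions, 1430 of 1447 values under the alternatives kept the sign and 17 turned. Many of these genes were named for a small interaction p, and the alternatives reuse the same libraries. Kept signs are thus no independent support. Leaving out any 1 library gave -8.84 to 0.18 for Robo4, -10.94 to 0.02 for Adgrg5, -0.53 to 10.14 for Cyp4f15, -0.90 to 0.04 for Tnfaip3, -0.99 to 0.06 for Oasl1, -0.84 to 0.16 for Isg15, -2.40 to 0.42 for Cd70, -1.31 to 0.07 for Ccl22, -0.44 to 4.73 for Pdgfrb and -0.01 to 3.18 for Tcof1. The turned values came without naive replicate 3 labelled knockout for Tnfaip3, Oasl1, Isg15, Cd70 and Ccl22, without LPS wild-type replicates 1 (Robo4) or 2 (Adgrg5), and without LPS replicates 4 (Cyp4f15) or 2 (Pdgfrb, Tcof1) labelled knockout. Without the 3 libraries Gpr34 was -3.35, Cyp4f15 -0.93, Tnfaip3 0.08, Isg15 0.08, Cd40 0.04, Cd70 0.18 and Ccl22 0.12. The cause of these turns was not tested.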

Other observations

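In LPS replicate 2 labelled knockout, the neighbouring genes Tcof1, Camk2a and Pdgfrb on chromosome 18 were far above all other libraries. The stretch was chosen after its values were seen. Tcof1, a nucleolar protein gene (60813755 to 60848971, GRCm38), was at 1093 CPM there, against 58.8 to 74.3 CPM in the other 5 LPS libraries. Camk2a, a calcium-dependent kinase gene known from neurons (60925618 to 60988152), was at 898 CPM there and at most 1.299 CPM in the others. Pdgfrb, a growth factor receptor gene (61045150 to 61085061), was at 517 CPM there and at 5.69 to 8.52 CPM in the others. Csf1r, the next gene (61100598 to 61132149), was at 1076 CPM there and at 392 to 666 CPM in the others. It was raised far less, since naive libraries held 497 to 854 CPM. The genes that flank the stretch were not raised to a like degree. Cd74 was at 10780.5 CPM against 10645 to 12693 CPM, and Hmgxb3 at 40.1 CPM against 29.3 to 39.9 CPM. Naive replicate 2 labelled knockout, which carries the same number, was not raised: no naive library exceeded 51.3 CPM for Tcof1, 0.949 CPM for Camk2a or 1.07 CPM for Pdgfrb. Without the 3 libraries labelled knockout with Gpr34 reads, this library alone stands for LPS-treated cells labelled knockout. Tcof1 (4.07) and Pdgfrb (5.55) were then 2 of the 3 genes called for the interaction by edgeR's quasi-likelihood test. The other, the cell division gene Depdc1b, was at 0, 0.0599 and 0.596 CPM in LPS replicates 2, 3 and 4 labelled knockout.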
